A study of Mus musculus with 3 samples.

Results

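The Ms4a genes are a cluster of related membrane protein genes, and 7 of them were followed here across the immune cells of the mouse pancreas: Ms4a1, Ms4a4b, Ms4a4c, Ms4a6b, Ms4a6c, Ms4a6d and Ms4a7. They were chosen by name, 7 of 31053 annotated features, for members known to mark B cells, T and NK cells, monocytes or resident macrophages. The 3 libraries came from C57BL/6J mice of both sexes, 6 to 8 weeks of age, that received PBS (the PBS library) or a single intraperitoneal dose of 1 mg of WGP, a particulate β-glucan from the yeast Saccharomyces cerevisiae, 3 days (3-day WGP) or 7 days (7-day WGP) before the pancreas was taken. Live CD45+ cells, CD45 being the surface protein that all white blood cells share, were sorted from the digested organ and their transcripts were counted by single-cell RNA sequencing. There was 1 library per group, and how many mice each library held was not given in the sources used here. With 1 library per group there is no replicate check, so no test between groups was possible, and every interval below is a 95% interval that covers counting error only.

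Ms4a proteins are small proteins that cross the cell membrane several times, and their genes lie side by side in the genome. The best known is CD20, the product of Ms4a1, which sits on B cells from the late precursor stage until they become plasma cells and is the target of therapeutic antibodies in B cell disease. Ms4a4b is known as a surface protein of T and NK cells, Ms4a6c and Ms4a6d are known from cells of the monocyte and macrophage lineage, and Ms4a7 is used as a marker of tissue-resident macrophages. The question asked of the data was how the family was divided among the cell types of the pancreas and how that division differed between PBS and the days after WGP.

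The libraries held 52464690 (PBS), 56849043 (3-day WGP) and 48219246 (7-day WGP) unique molecular identifiers (UMIs, each standing for 1 captured transcript). After the filter of at least 1000 UMIs and at most 30% mitochondrial UMIs per barcode, and after removal of likely doublets, 5029, 4689 and 4035 cells remained, with medians of 5500, 5570 and 7806 UMIs. Between 1 and 7 cell barcodes were shared by any pair of libraries. Cells were clustered with every gene named Ms4a left out, so that the classes do not rest on these genes. Of 26 clusters 6 stayed unnamed, and the others were named after 13 cell types from marker genes. Ptprc, the gene for CD45, stood at 684, 572 and 982 CPM (the UMIs of a gene per 1000000 UMIs of the cells counted) in the leukocyte clusters, and 4.65%, 4.71% and 2.97% of the cells lay in erythroid-like, acinar-like and fibroblast-like clusters and in cluster 21, which held islet and stromal genes, where Ptprc was at 92.7, 49.7 and 37.3. The sex of the cells differed between libraries in monocyte/macrophage-like and NK cell-like cells, and its part in the differences was not tested. Among monocyte/macrophage-like cells, 708 cells held the female transcript Xist and 5 a chromosome Y transcript in PBS, against 70 and 478 in 3-day WGP and 544 and 572 in 7-day WGP. Among NK cell-like cells the same counts were 53 and 27, 15 and 191, and 107 and 176. Classes of the same library differed as well, with 325 and 891 such cells among B cell-like cells of PBS. The part of sex in differences between classes was not tested.

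The 7 genes lie on mouse chromosome 19 between positions 11249675 and 11604849 of build GRCm38, a stretch of 355175 bases that also holds other Ms4a genes. Ms4a1 (ENSMUSG00000024673) at 11249675 to 11266241, Ms4a7 (ENSMUSG00000024672) at 11321039 to 11336146 and Ms4a6d (ENSMUSG00000024679) at 11586604 to 11604849 are read from the minus strand. Ms4a4c (ENSMUSG00000024675) at 11404770 to 11427246, Ms4a4b (ENSMUSG00000056290) at 11443553 to 11467055, Ms4a6c (ENSMUSG00000079419) at 11469366 to 11482192 and Ms4a6b (ENSMUSG00000024677) at 11516512 to 11531256 are read from the plus strand. Annotated antisense transcripts overlap Ms4a1 (4930526L06Rik), Ms4a6c (BE692007) and the start of Ms4a6b (Gm19261), and the strand setting of the counting was not given in the sources used here. In the last 500 bases of the annotated transcripts, where the 3′ reads of this assay fall, 21 stretches of 100 bases were identical between Ms4a4b and Ms4a4c (1.13% of those of Ms4a4b and 1.97% of those of Ms4a4c), and none were shared by any other pair of the 7 or with another gene. Reads from these stretches match both genes.

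The bases in front of 2 pairs of members are shown because a stretch of them is nearly the same within a pair. The genes of a pair had different places among the cell types. The sequences are RefSeq promoter sequences on build GRCm38.p6, plus strand, 5′ to 3′, ending before the next annotated exon base. Capitals mark bases identical to the partner gene in the local alignment of the pair, and where a printed window ends earlier, the capitals of its partner run past it. The windows are chr19:11443353-11443552 for Ms4a4b, chr19:11407461-11407660 for Ms4a4c (inside its own gene body), chr19:11518309-11518452 for Ms4a6b (inside its own gene body) and chr19:11469166-11469365 for Ms4a6c.
Ms4a4b: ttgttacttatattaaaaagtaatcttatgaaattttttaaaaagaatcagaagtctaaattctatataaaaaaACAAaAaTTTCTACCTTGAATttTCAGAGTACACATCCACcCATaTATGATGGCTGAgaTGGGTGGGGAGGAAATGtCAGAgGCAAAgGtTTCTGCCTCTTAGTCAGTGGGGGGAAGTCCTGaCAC
Ms4a4c: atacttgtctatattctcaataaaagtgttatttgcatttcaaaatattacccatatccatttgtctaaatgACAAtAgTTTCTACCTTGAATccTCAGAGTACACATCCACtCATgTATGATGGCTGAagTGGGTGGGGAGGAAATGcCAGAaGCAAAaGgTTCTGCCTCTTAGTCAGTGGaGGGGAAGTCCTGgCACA
Ms4a6b: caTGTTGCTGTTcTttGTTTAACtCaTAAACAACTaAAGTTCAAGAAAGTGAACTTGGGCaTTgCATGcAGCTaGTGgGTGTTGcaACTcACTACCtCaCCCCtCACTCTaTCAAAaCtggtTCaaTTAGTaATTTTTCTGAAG
Ms4a6c: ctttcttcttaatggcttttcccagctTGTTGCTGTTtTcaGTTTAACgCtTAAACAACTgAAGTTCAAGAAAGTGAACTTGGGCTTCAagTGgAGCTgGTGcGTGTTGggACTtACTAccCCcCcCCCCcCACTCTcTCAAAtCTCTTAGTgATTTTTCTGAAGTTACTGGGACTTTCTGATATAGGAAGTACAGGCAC
Over the 250 bases before the start, Ms4a4b and Ms4a4c had 114 identical bases of 127 aligned (89.8%), and Ms4a6b and Ms4a6c had 152 of 170 (89.4%). The other bases of the 250 were not aligned. The aligned stretch lay at positions -248 to -71 before the start of Ms4a6b and -175 to -2 before that of Ms4a6c. The alignment scores were 184 and 208, while the next best pair among the promoters compared, Ms4a7 with Ms4a6b, scored 23. Each of 3 short motifs was searched on both strands of the RefSeq promoter windows of the 5 members that have one. AGGAAGT, a core of PU.1 and other ETS factors, matched once before Ms4a6c and at 2 places before Ms4a6b, and is held by 7.69% of 32851 mouse promoter windows of that length. The core of the interferon-stimulated response element (ISRE) had no match in the 5 members with a promoter sequence (2.98% of all), and TGANTCA, the AP-1 core, matched only before the second annotated start of Ms4a7 (6.75% of all). A match is a description of letters and not a bound site.

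Levels are given as CPM over all cells of a class in a library. Values in threes are in the order PBS, 3-day WGP and 7-day WGP. CPM values compare the same gene between classes and libraries, not different genes with each other. Each gene had its own distribution over the classes. Ms4a1 was highest in B cell-like cells, Ms4a4b in NK cell-like and T cell-like cells, and Ms4a6d and Ms4a7 in monocyte/macrophage-like cells. Ms4a6b and Ms4a4c had high levels in more than 1 lineage. Ms4a6c was high in monocyte/macrophage-like cells and in clusters with genes of dendritic cells or patrolling monocytes.

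**Figure D1:**
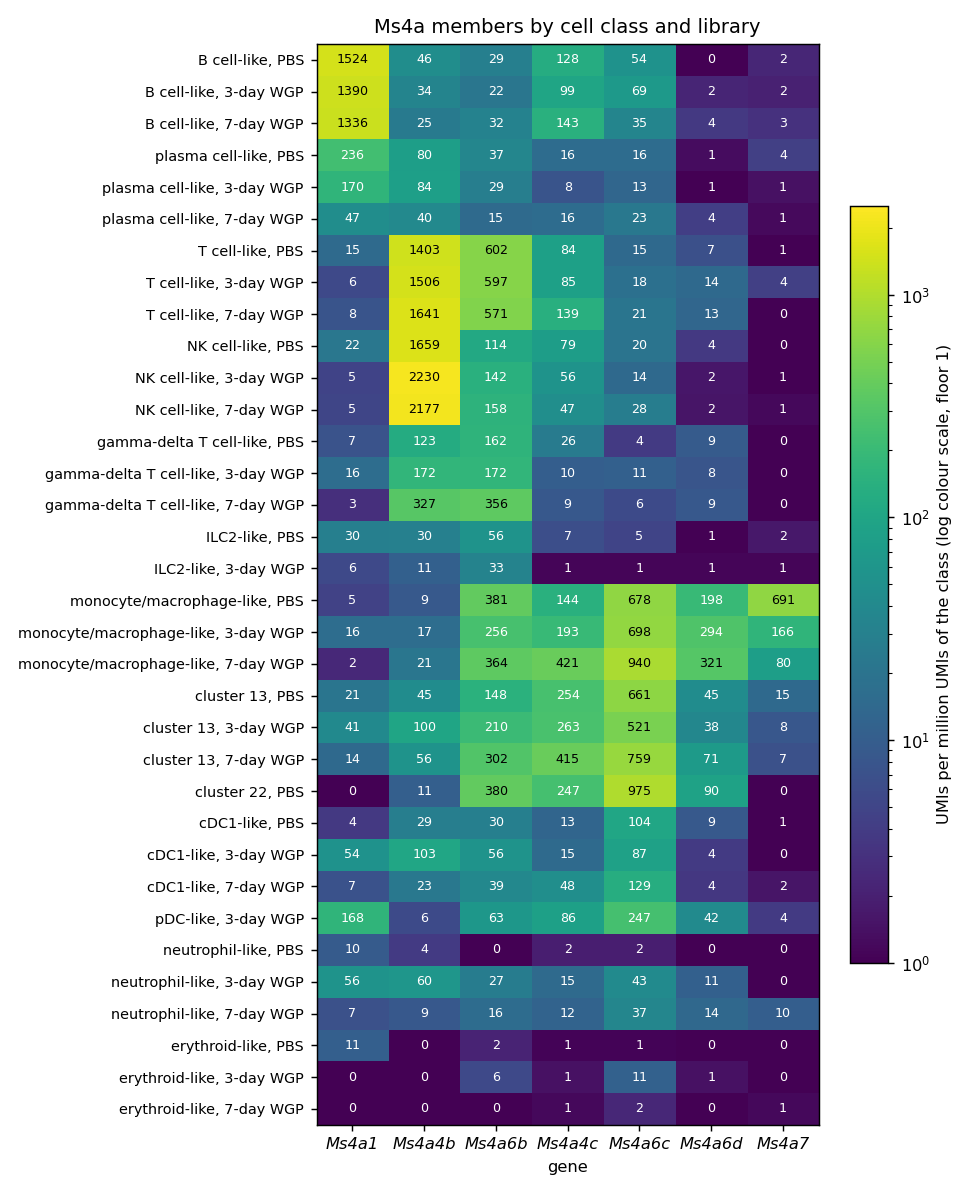
Each cell gives the level of a gene (column) in CPM of the class in a library (row), for the classes shown that had at least 50 cells in that library, on a log colour scale. Ms4a1 stands at 1336 to 1524 in the B cell-like rows, Ms4a4b at 1403 to 2230 in the T and NK cell-like rows, and Ms4a7 at 691, 166 and 79.8 in the monocyte/macrophage-like rows.

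Ms4a1, the CD20 gene, was at 1524 CPM (1502 to 1546; 18382 UMIs in 1935 cells) in B cell-like cells of the PBS library, 1390 (1359 to 1422) in 3-day WGP and 1336 (1297 to 1376) in 7-day WGP. The 3 levels lay within 1.14-fold of each other, with log2 differences to PBS of -0.13 (-0.17 to -0.09) and -0.19 (-0.24 to -0.14). After each cell was thinned to 1000 UMIs, 71.1%, 68.9% and 68.8% of B cell-like cells held an Ms4a1 UMI (92.2%, 92.3% and 94.5% without thinning, at median depths of 3777, 4226 and 4996 UMIs). The same share in T cell-like cells, which should lack the gene, was 0.560%, 0.466% and 0.624% (2.80%, 1.24% and 1.25% without thinning, at median depths of 3630.5, 4976 and 6525). B cell-like cells themselves were 1935, 833 and 513 of the cells of the libraries, from the same 3 clusters (1, 2 and 3) in each. In B cell-like cells with Xist, Ms4a1 was at 1727 (1685 to 1770), 1407 (1345 to 1470) and 1220 (1150 to 1293) CPM. In those with a chromosome Y transcript it was at 1424, 1346 and 1431. Thus the levels of Ms4a1 over the whole class lay close together, and those of the cells with Xist less so. B cell-like cells made up 38.5%, 17.8% and 12.7% of all cells.

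Plasma cell-like cells, the antibody-secreting descendants of B cells, held Ms4a1 at 236 (225 to 247), 170 (163 to 176) and 46.7 (39.6 to 54.7) CPM. The 7-day level was 5.05-fold lower than in PBS (log2 -2.33, -2.58 to -2.10). The 8 B cell marker genes together stood at 1396, 1209 and 652 CPM in the same cells, so they were lower at 7 days as well, and their part in the Ms4a1 difference was not tested. In 7-day WGP 79 cells were of this class, against 249 and 545. The acinar-like cluster had Ms4a1 at 1010, 396 and 831 CPM in 38, 85 and 12 cells, and B cell markers were the next most raised list of that cluster after the acinar one. Cluster 18, in which B and T cell markers were both raised (162, 31 and 6 cells), had Ms4a1 at 703 CPM and Ms4a4b at 576 CPM in PBS. Transcripts of barcodes with at most 100 UMIs, taken as free RNA, held Ms4a1 at 239, 145 and 100.4 CPM.

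Within the B cell-like class, re-clustered without Ms4a genes, Ms4a1 was between 1011 and 1851 CPM in all 9 sub-clusters over the 3 libraries together. The lowest, sub-cluster 6, was at 1290 (1194 to 1391), 403 (323 to 497) and 945 (815 to 1090) in the single libraries, from 60, 18 and 17 cells. Over the libraries together, Ms4a4c varied more among the same sub-clusters, from 24.3 CPM in sub-cluster 8 (Pclaf, Mef2b and Mki67, genes of dividing germinal centre cells) and 41.6 in sub-cluster 1, in which markers of B-1 cells were raised, to 374 in sub-cluster 7, whose leading genes were Gbp4, Gbp2 and Serpina3g and which held 26, 6 and 54 cells of the libraries. The PBS and 7-day cells of that sub-cluster had Ms4a4c at 559 and 297 CPM, and the 6 cells of 3-day WGP at 579. The largest sub-cluster, with Satb1 and Ccr7 among its leading genes, had 210 CPM. Ms4a6c had the other order, with 95.7 CPM in sub-cluster 1 and 15.7 in the largest one, and 144 in sub-cluster 6 (Prtn3 and Ctsg). By library sub-cluster 6 had 218, 83.4 and 15.1 CPM of Ms4a6c and sub-cluster 1 had 96.0, 121 and 52.8, so sub-cluster 6 was the higher one in PBS only. B-1 cells are an innate-like B cell type of body cavities, and haemoglobin genes led sub-cluster 1, so its markers alone tie it to them. Over the whole class Ms4a4c stood at 128 (121 to 134), 98.6 (90.4 to 107) and 143 (131 to 157) CPM, and none of the 5 members compared (those with at least 10 CPM in 1 of the 2 sums) was at least 2-fold higher or lower than PBS at 3 days or at 7 days. Of all genes compared in this way, 2.65% and 2.15% were past 2-fold in these comparisons. The median log2 difference of the 5 members was -0.37 and -0.19, beside 0.02 and -0.01 over all genes. In cells with Xist the 3-day difference of Ms4a4c was 0.38, and in cells with a chromosome Y transcript -0.78, so its direction over the class depended on which cells were counted. At 7 days the Xist cells were past 2-fold for Ms4a4c, at 138 (115 to 164) CPM against 66.7 (58.6 to 75.5) in PBS (log2 1.05), and Ms4a6c stood at 20.5 (12.3 to 32.0) against 104 (94.0 to 115) in them.

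Ms4a4b, the T and NK cell member, was at 1659 (1553 to 1771), 2230 (2163 to 2299) and 2177 (2120 to 2235) CPM in NK cell-like cells. In T cell-like cells it was at 1403 (1358 to 1448), 1506 (1467 to 1546) and 1641 (1606 to 1676). In each library the NK cell-like level was above the T cell-like one, and their intervals did not overlap. Over all cells both classes were higher after WGP, by 0.43 (0.32 to 0.53) and 0.39 (0.29 to 0.49) on the log2 scale in NK cell-like cells and by 0.10 (0.04 to 0.16) and 0.23 (0.17 to 0.28) in T cell-like cells. In T cell-like cells with Xist the 3-day difference had the other sign, -0.24. The 3-day and 7-day NK cell-like levels did not differ beyond counting error (log2 -0.03, -0.09 to 0.02). Thinned to 1000 UMIs, the share of NK cell-like cells with Ms4a4b was 75.5%, 83.8% and 88.0%, and that of T cell-like cells 70.5%, 71.4% and 77.1%. Without thinning the shares were 99.1%, 99.7% and 99.7%, and 96.5%, 95.3% and 95.5%. B cell-like cells gave 2.79%, 2.40% and 1.75% (11.2%, 10.1% and 10.9% without thinning), and NK cell-like cells had median depths of 4305.5, 3675.5 and 5834.5 UMIs.

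Other lymphocytes held less of it. Gamma-delta T cell-like cells, a class marked here by Trdc, Cd163l1 and Il17a, had Ms4a4b at 123 (95.2 to 157), 172 (152 to 193) and 327 (270 to 393) CPM in 121, 378 and 62 cells, and Ms4a6b at 162 (130 to 200), 172 (152 to 193) and 356 (296 to 425). At 7 days both were higher than in PBS, 2.66-fold and 2.19-fold. Free RNA held Ms4a4b at 101, 161 and 278 CPM and Ms4a6b at 139, 154 and 223, and its part in these differences was not tested. Type 2 innate lymphoid cells (ILC2-like, 272 and 286 cells in PBS and 3-day WGP) had 30.4 and 11.1 CPM of Ms4a4b, and 10 such cells were found in 7-day WGP. Both levels lay far below those of NK and T cell-like cells, and their intervals did not overlap.

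Ms4a6b was the second T cell member. It was at 602 (572 to 632), 597 (573 to 623) and 571 (551 to 592) CPM in T cell-like cells, with log2 differences of -0.01 (-0.10 to 0.08) and -0.07 (-0.16 to 0.01), which both include 0. NK cell-like cells had 114 (87.3 to 146), 142 (125 to 160) and 158 (143 to 174), well below the T cell-like cells in every library. Thus NK cell-like cells were above T cell-like cells for Ms4a4b and below them for Ms4a6b. Thinned shares for Ms4a6b were 42.5%, 43.9% and 42.6% in T cell-like cells (84.1%, 84.8% and 92.0% without thinning) and 10.0%, 11.3% and 14.9% in NK cell-like cells (40.9%, 41.9% and 57.9%). B cell-like cells gave 2.22%, 2.04% and 2.73% (10.9%, 10.1% and 15.4%).

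Among T cell sub-clusters, Ms4a4b was highest in the one named CD8 T-like, led by Gzma, Gzmk and Gzmb, with 2213 CPM over the 3 libraries. Sub-cluster 4 (202 cells), led by Cd8b1 and Cd8a, stayed unnamed, so the named one does not stand for all cells with CD8 genes. Sub-cluster 1, led by the NK receptor genes Klra7 and Klra1 and by Fcer1g, had 1870. Sub-cluster 2, in which naive T cell markers were raised, had 1296, and the regulatory T-like one, of 75 cells, had the lowest level over the 3 libraries together, 526, and for Ms4a6b also the lowest, 290. In 3-day WGP alone sub-cluster 8 (14 cells) was lower for Ms4a4b, at 360 (209 to 576) against 736 (611 to 878). The CD8 T-like sub-cluster was at 1824, 2369 and 2307 CPM in the 3 libraries and the regulatory T-like one at 296, 736 and 511, so the former was above the latter in each. Sub-cluster 1 had less Ms4a6b (448) than the CD8 T-like one (801), the same direction as in NK cell-like cells. Ms4a4c was highest in sub-cluster 1 (186 CPM) and lowest in sub-cluster 2 (33.9).

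In T cell-like cells 2 of 6 members were at least 2-fold higher or lower at 3 days (1.35% of all genes compared), Ms4a1 and Ms4a6d, and 0 of 6 at 7 days (3.37%). In NK cell-like cells it was 1 of 5 at 3 days (8.45%) and 1 of 5 at 7 days (8.8%), Ms4a1 in both. These were low levels. Ms4a1 was at 15.1, 5.70 and 7.68 CPM in T cell-like cells (40, 21 and 40 UMIs) and at 22, 4.81 and 5.13 in NK cell-like cells. All 8 B cell markers had UMIs in these cells, summing to 122, 52.9 and 78.3 CPM in T cell-like and 132, 43.3 and 19.3 in NK cell-like cells, so B cell transcripts were highest in PBS as well. Ms4a6d stood at 6.78, 14.4 and 13.1 CPM in T cell-like cells (18, 53 and 68 UMIs), where the 9 monocyte/macrophage markers summed to 162, 383 and 346 CPM. The part of RNA from other cells in these differences was not tested. The medians of the members compared were 0.05 and 0.37 in T cell-like cells (all genes -0.02 and 0.05), and -0.49 and 0.39 in NK cell-like cells (all genes -0.03 and 0.01). Among the 3 members above 50 CPM in T cell-like cells, Ms4a4c had the widest difference at 7 days, 84.3 (73.6 to 96.1), 84.6 (75.5 to 94.5) and 139 (129 to 149) CPM, 1.64-fold higher than PBS (log2 0.72, 0.50 to 0.94). Free RNA held Ms4a4c at 54.8, 71.0 and 177 CPM, and its part in this difference was not tested.

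In monocyte/macrophage-like cells (748, 733 and 1411 cells), 5 of the 7 members had substantial levels, and their directions after WGP differed. Ms4a7, the resident macrophage member, was at 691 CPM (673 to 710; 5585 UMIs), 166 (158 to 174) and 79.8 (75.5 to 84.2) in the 3 libraries. It was 4.17-fold lower at 3 days (log2 -2.06, -2.14 to -1.98) and 8.66-fold lower at 7 days (log2 -3.12, -3.20 to -3.03), and the 3 intervals did not overlap. Among cells with at most 10000 UMIs the 3-day log2 value was -1.08. Thinned to 1000 UMIs, 42.6% (39.1 to 46.3), 15.3% (12.8 to 18.1) and 5.67% (4.52 to 7.01) of the cells held a UMI of it, and 76.3%, 44.7% and 23.3% without thinning, at median depths of 10226.5, 14045 and 10805 UMIs. In B cell-like cells the thinned share was 0.155%, 0.12% and 0 of 513 cells, which allows a share of up to 0.585% (1.29%, 1.32% and 1.95% without thinning).

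Ms4a4c had the opposite direction. It was at 144 (136 to 153), 193 (185 to 201) and 421 (411 to 431) CPM, 1.34-fold higher at 3 days (log2 0.42, 0.32 to 0.53) and 2.92-fold higher at 7 days (log2 1.55, 1.46 to 1.64). Its thinned share was 10.0% (7.97 to 12.4), 15.3% (12.8 to 18.1) and 31.7% (29.3 to 34.2) of the cells, and 34.2%, 40.9% and 71.9% without thinning. B cell-like cells, which served as the background class for the other members, held this gene themselves, with 15.3%, 14.5% and 14.4% of cells thinned and 42.3%, 34.8% and 44.8% unthinned, so the thinned share of the monocyte/macrophage-like cells lay clearly above it at 7 days only. Among the cells with at most 10000 UMIs the 3-day direction turned, with a log2 of -0.19, while the 7-day value was 1.85.

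The Ms4a6 members differed less. Ms4a6c was at 678 (660 to 696), 698 (683 to 714) and 940 (925 to 955) CPM, 0.04 (-0.01 to 0.09) and 0.47 (0.43 to 0.52) on the log2 scale. Ms4a6d was at 198 (188 to 208), 294 (284 to 304) and 321 (313 to 330), 0.57 (0.49 to 0.66) and 0.70 (0.62 to 0.78). Ms4a6b was at 381 (368 to 395), 256 (246 to 265) and 364 (355 to 373), -0.58 (-0.65 to -0.50) and -0.07 (-0.13 to -0.004). Ms4a6b was thus lowest at 3 days and close to its PBS level at 7 days, a course that no other of these 5 members had, and its 7-day sign was the other one with TMM scaling (log2 0.20) and for the mean of single cells (0.06). The thinned shares were 43.0%, 44.6% and 58.6% for Ms4a6c, 15.2%, 24.7% and 25.6% for Ms4a6d and 29.7%, 19% and 29.3% for Ms4a6b, and in B cell-like cells they were 2.58%, 4.32% and 2.53%, 0% to 0.585%, and 2.04% to 2.73%. Unthinned, they were 92.5%, 93.3% and 96.0%, 71.0%, 87.6% and 84.1%, and 83.4%, 64.1% and 77.5%.

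Of the 7 members compared in this class at 3 days, 1 was at least 2-fold higher (5.8% of all genes compared) and 1 at least 2-fold lower (7.4% of all genes), Ms4a1 and Ms4a7. Of 6 compared at 7 days, 2 were higher (6.14% of all genes), Ms4a4b and Ms4a4c, and 1 lower (11.4% of all genes), Ms4a7. The median log2 difference of the members was 0.42 and 0.59, beside -0.07 and -0.17 over all genes compared. Ms4a1 and Ms4a4b were scarce here, at 4.70, 16.2 and 2.48 and at 8.91, 16.6 and 21.4 CPM. The 8 B cell markers summed to 101, 87.7 and 35.6 CPM and the 8 T cell markers to 7.43, 28.6 and 20.9 in the same cells, with Cd3d and Cd3g at 0 in PBS, and free RNA held Ms4a4b at 101, 161 and 278 CPM. The part of that RNA in these low levels was not tested.

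The class was made of 3 clusters that held very different shares of it in each library. Cluster 7 (leading genes Pf4, Mrc1 and Cbr2, genes of resident macrophages) gave 80.7%, 13.5% and 3.12% of the class in the 3 libraries. Cluster 6 (Saa3, Arg1 and Marco) gave 6.02%, 58.5% and 22.7%, and cluster 0 (Ly6i, Cxcl9 and Cxcl10, genes induced by inflammation and interferon) 13.2%, 28.0% and 74.2%. Most of the class was therefore cluster 7 in PBS, cluster 6 at 3 days and cluster 0 at 7 days.

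Ms4a7, Ms4a4c and Ms4a6b differed widely between the clusters. In cluster 7, Ms4a7 was at 849 (827 to 872), 604 (553 to 657) and 511 (441 to 589) CPM. In cluster 6 it was at 51.6 (34.6 to 74.2), 171 (162 to 181) and 175 (163 to 187), and in cluster 0 at 52.1 (39.1 to 67.9), 20.4 (15.5 to 26.3) and 26.9 (24.0 to 30.1). So Ms4a7 was lower after WGP within clusters 7 and 0, and higher within cluster 6, where only 45 cells came from PBS. Ms4a4c was at 754 (702 to 809), 651 (622 to 681) and 589 (576 to 604) in cluster 0, lower after WGP than in PBS, the opposite of its direction in the class as a whole. In cluster 7 it was at 58.6, 46.9 and 108, and in cluster 6 at 3.56, 30.9 and 33.6. Ms4a6d in cluster 6 was at 116 (89.3 to 148), 260 (248 to 271) and 233 (219 to 247), and in cluster 0 at 234 (206 to 266), 395 (372 to 418) and 360 (350 to 372), higher after WGP in both. Ms4a6b was scarcest in cluster 6, at 92.6, 70.6 and 68.8, against 379, 455 and 365 in cluster 7 and 547, 667 and 484 in cluster 0.

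**Figure D2:**
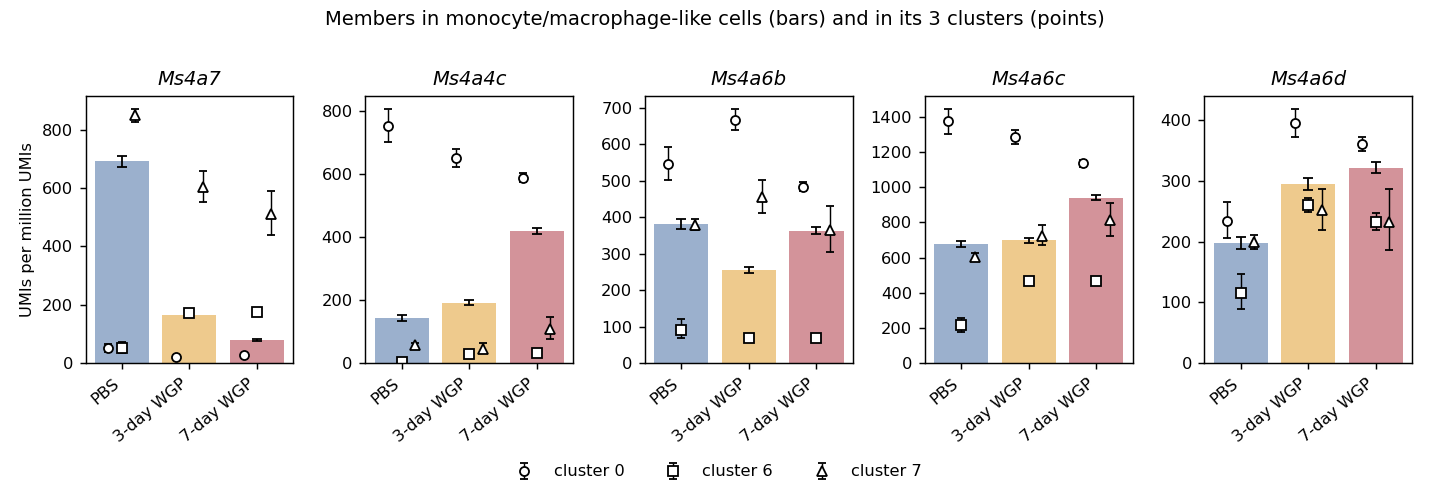
Bars give the level (CPM) of 5 members in monocyte/macrophage-like cells of each library, and open symbols the level in clusters 0, 6 and 7 of that class, with 95% Poisson intervals. The bars of Ms4a7 stand at 691, 166 and 79.8 with its cluster 7 symbols at 849, 604 and 511, and the bars of Ms4a4c at 144, 193 and 421 with its cluster 0 symbols at 754, 651 and 589.

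A swap of cluster make-up and cluster level between libraries was computed. With the cluster make-up of 7-day WGP and the cluster levels of PBS, the class would hold 69.8 CPM of Ms4a7, against 79.8 measured. The PBS make-up with the 7-day levels gives 425. The corresponding values for 3 days were 114 and 499, against 166 measured. Ms4a7 was lower after WGP in clusters 7 and 0 and higher in cluster 6, so differences of opposite direction enter these values. The PBS level of cluster 6 came from 45 cells. The parts of make-up and level were not tested. For Ms4a4c the 7-day make-up with PBS levels gives 525 and the PBS make-up with 7-day levels 165, against 144 in PBS and 421 at 7 days. For Ms4a6d the 7-day make-up with PBS levels gives 199.8, beside 198 in PBS, and the PBS make-up with 7-day levels 249, against 321 measured. These are products of the values above and carry no interval.

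A finer look at the class, clustered again without Ms4a genes into 7 sub-clusters, gave the levels in monocyte and macrophage states. In the Ly6C-high monocyte-like sub-cluster (Chil3, Vcan and Ly6c2 among the leading genes; 86, 126 and 310 cells), all of Ms4a4c, Ms4a6b, Ms4a6c and Ms4a6d had their highest level over the 3 libraries, 937, 787, 1534 and 422 CPM, and Ms4a7 was at 20.8. By library its Ms4a4c level was 833 (772 to 898), 820 (777 to 865) and 1029 (993 to 1065), highest at 7 days. In the inflammatory macrophage-like sub-cluster (Ly6i, Cxcl9, Ccl5 and Nos2; 18, 44 and 691 cells), the same 4 genes were at 420, 362, 1010 and 346, and Ms4a7 at 65.8. Ms4a4c was at 361 (288 to 448), 485 (428 to 548) and 417 (403 to 431) there by library, so the lower level after WGP seen in cluster 0 was not seen at 7 days in either of these states. The resident macrophage-like sub-cluster (Gas6, Cd163, Mrc1 and Folr2; 340, 53 and 12 cells) had Ms4a7 at 758 and Ms4a4c at 21.6. Ms4a4c and Ms4a7 thus stood at opposite ends of these 3 named states.

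Ms4a7 was also high in a sub-cluster without a name. Sub-cluster 3, led by Mucl1, Retnla and Pmepa1 with Tmem119 and Cx3cr1 among its top 10 genes, had 861 CPM over all libraries and 953, 733 and 621 in the 3 libraries (260, 111 and 47 cells). The resident macrophage-like sub-cluster was at 781, 639 and 484 in the 3 libraries, so both were highest in PBS and lowest in 7-day WGP. By contrast sub-cluster 6, led by Cxcl13, Lyve1, Vsig4 and Timd4, had 15.6 CPM in 48 cells, none of them from 7-day WGP. It stayed unnamed because 2 marker lists scored nearly alike, resident macrophage (1.545) and large peritoneal macrophage (1.419). Lyve1 is a marker of the former list here and Timd4 of the latter. A sub-cluster that scored on both lists thus held little Ms4a7. Sub-cluster 1 (Arg1, Saa3, Cd5l and Prg4; 9, 346 and 224 cells) had 99.4 CPM and the lowest Ms4a6b, 60.3. Sub-cluster 5 (Gbp2b, Tppp3 and Ltb4r1; 1, 39 and 127 cells) had Ms4a7 at 2.99 and Ms4a4c at 234.

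**Figure D3:**
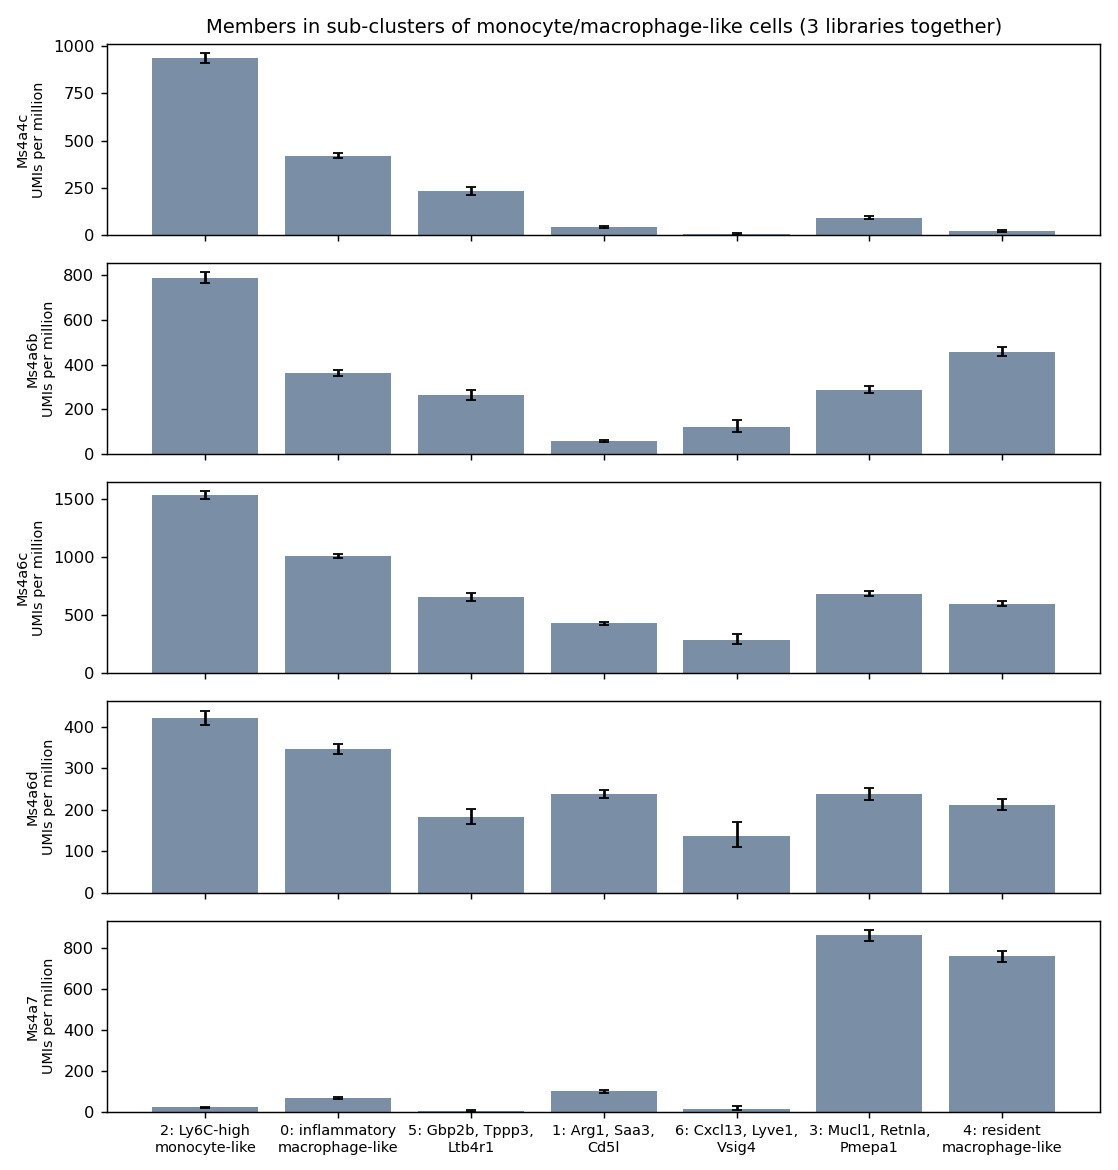
Bars give the level of a member in CPM in each sub-cluster of the monocyte/macrophage-like class, cells of the 3 libraries together, with 95% Poisson intervals. Ms4a4c, Ms4a6b, Ms4a6c and Ms4a6d are highest in the Ly6C-high monocyte-like bars at the left (937, 787, 1534 and 422), and Ms4a7 is at 861 and 758 in the last bars at the right and at or under 99.4 in all others.

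In single cells, the share with Ms4a7 was lower among those with Ms4a4c than among those without, in each library. Among monocyte/macrophage-like cells with at least 5000 UMIs, thinned to that number (661, 661 and 1295 cells, with 87, 72 and 116 shallower cells left out), 13.3% (10.8 to 16.1), 6.20% (4.49 to 8.32) and 6.10% (4.86 to 7.55) held both. Ms4a7 was found in 52.7%, 18.4% and 9.40% of the cells with Ms4a4c and in 80.4%, 34.9% and 26.6% of those without it. Ms4a6c, in contrast, was found in 98.2%, 98.2% and 98.1% of the cells with Ms4a4c and in 87.4%, 80.6% and 83.5% of those without. Nearly every cell with Ms4a4c thus held Ms4a6c as well. Cells of a library share a source and these shares carry no test.

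Beyond the named class, cluster 13 (Cd209a, Fscn1 and Ccl22, genes of dendritic cells, with markers of migratory and type 2 dendritic cells both raised; 166, 116 and 241 cells) held Ms4a4c, Ms4a6b and Ms4a6c. Ms4a4c was at 254 (233 to 276), 263 (236 to 292) and 415 (392 to 439) CPM there, 1.63-fold higher at 7 days. Ms4a6b was at 148 (133 to 165), 210 (186 to 236) and 302 (282 to 323), 2.04-fold higher at 7 days (log2 1.03, 0.84 to 1.21). Free RNA held Ms4a6b at 139, 154 and 223 CPM, and its part in this difference was not tested. In cluster 13, Ms4a6c was at 661, 521 and 759, and Ms4a7 at 14.7, 8.32 and 7.01. Ms4a6d was at 44.5 (36.1 to 54.3), 37.8 (28.1 to 49.9) and 70.8 (61.4 to 81.3), below the monocyte/macrophage-like level in each library. Thus this cluster had Ms4a4c and Ms4a6c at levels of the same order as monocyte/macrophage-like cells and hardly any Ms4a7. Type 1 conventional dendritic cell-like cells (cDC1-like, marked by Xcr1 and Clec9a) had Ms4a6c at 104, 87.1 and 129 CPM, and Ms4a4c at 12.7, 15.1 and 47.8, 3.76-fold higher at 7 days. Free RNA held Ms4a4c at 54.8, 71.0 and 177 CPM, above these levels in each library, and its part in them was not tested. Cluster 22, led by Ace, Ear2 and Treml4, genes of patrolling monocytes, held Ms4a6c at 975 (862 to 1098) in 50 cells of PBS, the highest level of that gene in a class of the library, with Ms4a4c at 247 and Ms4a7 at 0 of 279062 UMIs, which allows up to 10.8 CPM.

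For 5 of the members the same class came first in every library. Among classes with at least 50 cells, B cell-like cells were first for Ms4a1, NK cell-like cells for Ms4a4b, T cell-like cells for Ms4a6b, and monocyte/macrophage-like cells for Ms4a6d and Ms4a7 in all 3 libraries, and the next class did not overlap with the first in any of them. For Ms4a4c, cluster 13 was first in PBS, where its interval overlapped that of cluster 22, and in 3-day WGP. In 7-day WGP monocyte/macrophage-like cells were first, and the interval of cluster 13 overlapped theirs. For Ms4a6c, cluster 22 was first in PBS, with monocyte/macrophage-like cells and cluster 13 next and not separable. Among the classes ranked after WGP, monocyte/macrophage-like cells were first for Ms4a6c. In PBS, monocyte/macrophage-like cells and cluster 22 were likewise not separable for Ms4a6b. Cluster 22 had 14 cells in 3-day WGP and 28 in 7-day WGP, below the 50 needed, so it was not ranked for any gene after WGP.

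Counted as a share of all UMIs of a gene in a library, the family was divided as follows. B cell-like cells held 84.3%, 65.6% and 90.4% of the Ms4a1 UMIs, and plasma cell-like cells 8.45%, 25.3% and 3.21%. The latter had 34.8% of all UMIs of the kept cells in 3-day WGP. Of Ms4a4b, T cell-like cells held 52.6%, 44.3% and 56.6% and NK cell-like cells 12.8%, 33.3% and 36.5%, while NK cell-like cells had 1.28%, 3.85% and 6.47% of all UMIs. Ms4a4c was the member whose main class differed between the libraries, with 38.2%, 14.1% and 4.79% of its UMIs in B cell-like cells and 28.9%, 57.5% and 71.5% in monocyte/macrophage-like cells. Ms4a6b was split between monocyte/macrophage-like cells (47.2%, 41.3% and 55.8%) and T cell-like cells (24.5%, 32.0% and 27.6%) in each library. Monocyte/macrophage-like cells held 64.2%, 80.4% and 83.3% of Ms4a6c, 88.4%, 94.3% and 93.6% of Ms4a6d, and 97.4%, 96.1% and 95.9% of Ms4a7. So Ms4a7 was nearly confined to this class in each of the 3 libraries, and the class held 18.9%, 22.9% and 42.2% of all UMIs.

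**Figure D4:**
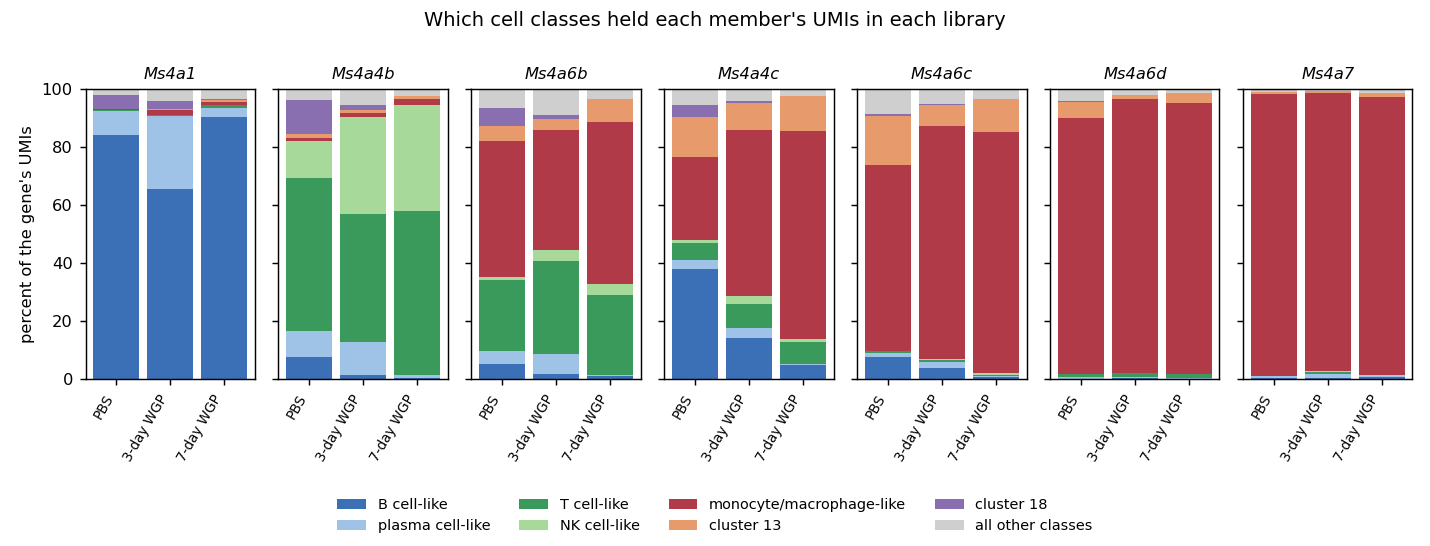
Stacked bars give the percent of the UMIs of each member that each cell class held in each library, over all kept cells. The B cell-like part of Ms4a4c is 38.2%, 14.1% and 4.79% and its monocyte/macrophage-like part 28.9%, 57.5% and 71.5%, and Ms4a7 has 97.4%, 96.1% and 95.9% in 1 class.

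Over whole libraries, where fewer cells of a type and less RNA per cell cannot be told apart, the levels were 511, 233 and 123 CPM for Ms4a1 and 134, 39.6 and 35.1 for Ms4a7. Swaps of class make-up and class level gave different values for these 2. With the 7-day class make-up and PBS levels Ms4a1 would stand at 160, and with the PBS make-up and 7-day levels at 399. For Ms4a7 the same 2 values were 295 and 16.9, one above and one below the PBS level. Ms4a4c stood at 94.4, 77.0 and 248 CPM, with 111 and 160 for the 2 swaps at 7 days, and Ms4a4b at 166, 258 and 386, with 318 and 160. For Ms4a6b (153, 142 and 275) the 7-day swaps gave 272 and 148, for Ms4a6c (200, 199 and 476) 355 and 251, and for Ms4a6d (42.3, 71.4 and 145) 89.0 and 68.8.

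Cells that held Xist and no chromosome Y transcript allowed a comparison within cells of 1 sex. In monocyte/macrophage-like cells with Xist (708, 70 and 544 cells), Ms4a7 was at 684 (666 to 703), 138 (117 to 163) and 74.5 (68.0 to 81.4) CPM and Ms4a4c at 142 (133 to 150), 227 (199 to 257) and 387 (372 to 402). Both had the direction of the whole class. Ms4a6d was at 197 (188 to 207), 181 (156 to 209) and 288 (275 to 301), so its higher 3-day level was seen in the whole class and not in these cells. The chromosome Y cells numbered 5 in PBS, too few for a ratio, and had Ms4a6d at 297 and 348 at 3 and 7 days. In NK cell-like cells of PBS, 53 held Xist and 27 a chromosome Y transcript, and Ms4a4b was at 1685 and 1648 CPM in them. At 7 days the same 2 groups (107 and 176 cells) were at 2101 and 2155, so the level after WGP was the higher one in both. In T cell-like cells the groups parted at 3 days, with Ms4a4b at 1446, 1222 and 1801 CPM in cells with Xist and at 1432, 1672 and 1558 in those with a chromosome Y transcript.

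**Figure D5:**
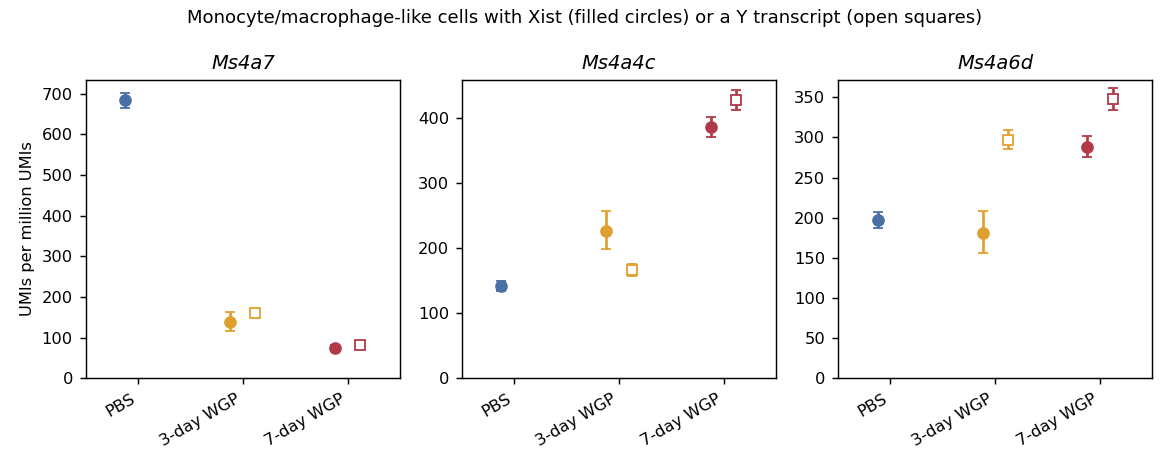
Points give the level (CPM, 95% Poisson intervals) of 3 members in monocyte/macrophage-like cells with Xist (filled circles) or a chromosome Y transcript (open squares), for groups of at least 50 cells. The filled circles stand at 684, 138 and 74.5 for Ms4a7 and at 142, 227 and 387 for Ms4a4c, and for Ms4a6d the 3-day circle, 181, lies below the PBS circle, 197.

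The genes most like each member over 41 class and library sums, by Pearson correlation of log2(CPM + 10) among 7081 genes, were mostly genes of the same cell type. They included Cd79a (r = 0.97) and Pax5 for Ms4a1, both markers that were used to name the B cell-like class. For Ms4a4b they were Lck (0.95), Txk and Sh2d1a. For Ms4a4c they were Arl5c (0.81), Il21r and Fam49a, for Ms4a6b Arl4c (0.81), Fam78a and Ifi213, and for Ms4a6c Ptpro (0.91), Rassf4 and Tifab. Ms4a6d was most like Fcgr1 (0.95), a marker that was used to name the monocyte/macrophage-like class, then Clec4a1 and Cebpa. Ms4a7 was most like Fcna (0.96), Cbr2 and Folr2, genes of resident macrophages. Cbr2 and Folr2 were also among the markers used to name the resident macrophage-like sub-cluster. Between members, the closest pair was Ms4a6c with Ms4a6d (0.85), whereas the pairs with a like promoter stretch had 0.23 (Ms4a4b with Ms4a4c) and 0.45 (Ms4a6b with Ms4a6c). The points share libraries, depth and free RNA, and the values are a description without a test.

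Of the other features named Ms4a, 12 in all, 7 reached 10 CPM in no class. Ms4a8a, a member known from alternatively activated macrophages, was at 39.2 (35.0 to 43.8), 200 (192 to 208) and 107 (102 to 113) CPM in monocyte/macrophage-like cells, 5.10-fold higher at 3 days and 2.74-fold higher at 7 days. It was highest in cluster 6, at 223, 243 and 155. That cluster had Saa3, Arg1, Marco, Cd5l and Prg4 among its top 10 genes and was low in Ms4a4c and Ms4a6b. Ms4a14, which lies next to Ms4a7, was at 36.1, 4.58 and 0.85 CPM in the class (292, 51 and 14 UMIs), 7.90-fold lower at 3 days, and at 44.3, 32.0 and 13.5 in cluster 7, the main cluster of Ms4a7, with 287 of its UMIs in PBS, 28 at 3 days and 5 at 7 days. Ms4a3, a gene of granulocyte and monocyte precursors, was at 170, 13 and 27.9 in neutrophil-like cells, from 8 of 83, 3 of 225 and 3 of 186 cells, and 56 of its 89 UMIs in PBS came from 1 cell. Its 139 UMIs in B cell-like cells of 3-day WGP came from 3 cells. Ms4a2, the β chain of the IgE receptor of mast cells, was at 18.9 in ILC2-like cells of 3-day WGP, and Ms4a4a at 14.3 in cluster 22 of PBS (4 UMIs).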

How the data were processed

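Live CD45+ pancreas cells of 3 groups (PBS, 3-day WGP and 7-day WGP, 1 library each) were measured by droplet 3′ single-cell RNA sequencing. The authors deposited unfiltered matrices of UMI counts, made with Cell Ranger (version 3.1.0) on mm10, per the labels. Seurat is also named there, without a version. No per-sample value columns were left unused (0).

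Barcodes with at least 1000 UMIs and at most 30% mitochondrial UMIs were kept (5249, 4879 and 4174). Scrublet scores were computed per library, and since its automatic threshold marked 0, 0 and 2 barcodes, the highest-scoring 0.8% per 1000 barcodes were removed (220, 190 and 139). Cells were clustered with Seurat (5.3.0; SCTransform 0.4.2, 3000 variable genes, 30 principal components, resolution 0.8; resolution 0.4 within classes), with mitochondrial, ribosomal and cell cycle scores regressed and every Ms4a gene left out. A cluster was named where at least 3 markers were raised and their mean log2 fold against the other cells, with 20 CPM added, was at least 1 and led the next list by 0.5. It still stayed unnamed where another list had more markers than its own among its top 10 genes. The same held where it was shallow and had no marker of its own there. The names were rebuilt from the counts and can differ from those of the study.

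Deposited counts were summed per class and library and given as CPM with exact Poisson intervals, and ratios with exact conditional intervals. Shares of cells carry exact Clopper-Pearson intervals after each cell was thinned to 1000 UMIs. A gene was compared for a 2-fold difference where it reached 10 CPM in 1 of the 2 sums, with a sum of 0 set to a floor of 3 counts. Since UMIs of 1 library share cells and mice, intervals cover counting error only, and no p-value was computed. The ratio script was checked on simulated counts. The 7 members were all described, and other genes were named by rank of likeness or as features named Ms4a, and some that the ranks gave are not reported here. The members and lists were chosen with earlier results of these data known. Alternatives covered the filters on cells and genes, doublets, clustering, scaling (TMM, edgeR 4.0.16), thinning, and cells of 1 sex, the last chosen after seeing the data. Other tools were Python 3.11.15, scanpy 1.11.5, scipy 1.17.1 and Biopython 1.88.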

Additional observations from a re-analysis of the deposited data

Results flagged for a closer look

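Between cells with Xist and cells with a chromosome Y transcript, 4 differences of 3 members between 3-day WGP and PBS had opposite signs with intervals on either side of 0, and the difference between the groups was not tested. In B cell-like cells the log2 values (Xist cells first) were 1.42 and -0.57 for Ms4a4b, from 17 UMIs in each library of the Xist cells, 0.38 and -0.78 for Ms4a4c, and -0.68 and 0.89 for Ms4a6c. In T cell-like cells they were -0.24 and 0.22 for Ms4a4b. The PBS levels of the 2 groups of B cell-like cells already lay apart, at 66.7 and 143 CPM for Ms4a4c and at 104 and 36.6 CPM for Ms4a6c. B cell-like sub-cluster 5, with the T cell genes Trbc2, Cd3d and Cd3g among its leading genes, held 78, 17 and 3 cells of the libraries. It had Ms4a4b at 241, 326 and 358 CPM, and its part in the Ms4a4b values of B cell-like cells was not tested.

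Between the times after WGP, 3-day and 7-day differences to PBS had opposite signs for Ms4a4c in B cell-like cells (-0.37 and 0.17), for Ms4a6c in B cell-like cells (0.34 and -0.63), for Ms4a6c in cluster 13 (-0.34 and 0.20) and for Ms4a6c in cluster 15 (-1.02 and 0.53), the cluster of low depth. Each compares single libraries, both times share the PBS library, and these differences were not tested.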

How the results depend on the processing

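No paired analysis was possible because there was 1 library per group. Of 270 alternative log2 values of 22 results on single members, 243 had the sign given in the report. Within the interval of the reported value lay 195 of them, and 29 differed from it by over 1.5 times or in sign. The 7-day difference of Ms4a7 in monocyte/macrophage-like cells was -3.64 with at most 10000 UMIs per cell, -2.99 without doublet removal, -3.25 for the mean of cells and -2.85 with TMM scaling, its 3-day difference was -1.08 with at most 10000 UMIs, and the 7-day difference of Ms4a4c 1.85 with at most 10000 UMIs, 1.64 for the mean of cells, 1.81 with TMM and 1.45 in Xist cells. In Xist B cell-like cells Ms4a4c was at 1.05 at 7 days. The sign of the 7-day difference of Ms4a6b turned with at most 10000 UMIs (0.28), without doublet removal (0.0195), for the mean of cells (0.0577) and with TMM (0.20). Other turned signs were those of Ms4a4c at 3 days (-0.19, at most 10000 UMIs) and Ms4a6d at 3 days (-0.12, Xist cells) in the same class; in B cell-like cells, of Ms4a4c at 7 days (-0.0154 at most 10000 UMIs, -0.0339 mean of cells, -0.16 Y cells) and 3 days (0.38, Xist cells) and Ms4a1 (0.0118 at 3 days, mean of cells, and 0.0074 at 7 days, Y cells); and in T cell-like cells, of Ms4a4b at 3 days (-0.24, Xist cells) and of Ms4a6b, whose intervals include 0, at 3 days under 9 alternatives (up to 0.21, at resolution 0.4) and at 7 days under 5 (up to 0.19, at resolution 0.4).

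The counts of members past 2-fold turned on the scarce ones. With at least 50 CPM they were 0 and 1 higher at 3 and 7 days in monocyte/macrophage-like cells, 0 at 3 days in T cell-like and 0 and 0 in NK cell-like cells. With no minimum they were 1 and 1 in B cell-like and 2 and 2 in NK cell-like cells. Higher at 3 days in monocyte/macrophage-like cells were 0 with at most 10000 UMIs and 2 with log normalization, Ms4a genes left in, or TMM; lower were 2 and 2 without doublet removal. In T cell-like cells the 7-day count was 1 (at least 2000 UMIs, at most 10000 UMIs, TMM) or 2 (no doublet removal, resolution 0.4, mean of cells, Y cells), and the 3-day count 1 with at most 40% ribosomal UMIs and 0 without doublet removal, with log normalization or in Xist cells. In B cell-like cells it was 1 at 7 days without doublet removal and in Y cells, and 1 and 2 in Xist cells. In NK cell-like cells it was 2 at 3 days with at most 10000 UMIs, 2 at 7 days without doublet removal and 0 in Xist cells. The cause of these shifts was not tested.

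Without thinning, 76.3%, 44.7% and 23.3% of monocyte/macrophage-like cells held Ms4a7 and 34.2%, 40.9% and 71.9% Ms4a4c, and thinned to 5000 UMIs 73.4%, 29.3% and 15.4% and 25.3%, 33.7% and 64.9%. At resolution 0.4, T cell-like cells held 64.1% (PBS) and 46.1% (3-day WGP) of Ms4a4b, and at 1.2, B cell-like cells held 81.2%, 57.7% and 88.9% of Ms4a1. At sub-cluster resolution 0.8, Ms4a7 was at 599 CPM in resident macrophage-like cells and Ms4a4c at 1089 in Ly6C-high monocyte-like and 437 in inflammatory macrophage-like cells. Depth limits the members below 10 CPM, and no setting replaces a second library per group.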

Other observations

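Gm8369, a protein-coding gene that lies between Ms4a6c and Ms4a6b and does not carry the family's name, was found in B and T cell-like cells. Unlike the genes named Ms4a, it was not left out of the clustering, and it was among the top 10 genes of cluster 18. It stood at 291 (281 to 301), 246 (233 to 259) and 294 (275 to 313) CPM in B cell-like cells and at 174 (159 to 191), 163 (150 to 176) and 149 (139 to 160) in T cell-like cells. In monocyte/macrophage-like cells, where Ms4a6c and Ms4a6b on either side of it were high, it was at 4.95, 8.70 and 5.38 CPM, and NK cell-like cells had as little, 3.67, 6.95 and 5.52 CPM.

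Free RNA held all 7 members. Between PBS, 3-day WGP and 7-day WGP it went from 54.8 to 71.0 and 177 CPM for Ms4a4c, from 163 to 228 and 338 for Ms4a6c and from 53.1 to 117 and 138 for Ms4a6d, and for Ms4a7 it was at 132, 126 and 96.1.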
